A study of Mus musculus with 8 samples.

Results

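The genes described are the mouse translation initiation and elongation factors, taken as every listed gene whose symbol begins with Eif or Eef followed by a digit. There were 63 such genes among 10690 genes listed in at least 1 of 3 deposited tables, and 61 were in all 3 tables. Each table holds 62 of them, because Eif1-ps1 was listed only beside RC4 and Eef2kmt was not listed there. All 63 matched a RefSeq symbol, while 23 of the 86 RefSeq symbols that fit the rule, among them Eef1a2, Eif5a2 and Eif4e3, had no values in the tables and were not analysed here. The rule takes symbols and not functions, so it also caught the eIF2 kinases, the eIF4E-binding proteins, methyltransferases of elongation factors and pseudogenes, and these are described by their own roles. The initiation and elongation factors and their subunits alone came to 47 genes in each comparison, with Eef1e1 counted among them by its name.

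The measurements came from QuantSeq FWD, which sequences near the 3′ ends of poly(A) RNA. It was applied to total RNA of NIH3T3 cells, an established mouse fibroblast line. NT cells were not treated. AS cells were kept for 1 h in medium with 250 µM sodium arsenite, an oxidative stressor, and RC4 and RC8 cells received the same arsenite for 1 h and were then returned to arsenite-free medium, RC4 for 4 h and RC8 for 8 h. Each condition had 1 library, so there was no replicate, no test between conditions and no P value, and the errors given below cover the counting of reads only, not differences between cultures. AS, RC4 and RC8 were each compared with the NT library, so the 3 comparisons share their control. In such bulk RNA a lower level per cell and fewer cells that hold the RNA cannot be told apart.

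Translation of most mRNAs starts when eIF2 brings the initiator tRNA to the small ribosomal subunit, eIF3 and the eIF4 factors place that subunit on a capped mRNA, and scanning factors let it find the start codon. eIF2B reloads eIF2 with GTP, and kinases that phosphorylate eIF2 turn it into an inhibitor of eIF2B, which is the classic stop on translation under arsenite. The elongation factors eEF1 and eEF2 then bring in aminoacyl-tRNAs and move the ribosome along. Many mRNAs of this machinery belong to the TOP class, whose translation follows mTOR.

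Each library had 22.4 M to 23 M reads on genes, of which the members held 2.32% to 2.55%. A member had between 64 reads (Eif3j1 in AS) and 123470 reads (Eef1a1 in RC4) in a library. Levels are given in RPM, a gene's reads scaled to the library's total on genes. On that scale the median gene had a log2 change of −0.041 in AS, −0.30 in RC4, but only 0.0053 in RC8, so changes are given on the log2 scale relative to the median gene of the same comparison unless RPM are named. The error after each log2 change is its Poisson counting error. All 9 fibroblast markers, such as Vim, Col1a1 and Thy1, were listed, and Ptprc, Epcam, Cdh1 and Pecam1, markers of other cells, were not. Hmox1, a gene known for induction by arsenite, was 2.15-fold higher in AS and 39.6-fold higher in RC4, and still 3.65-fold higher in RC8. On the same list of arsenite response genes, Hspa1b and Dnajb1 were higher in AS (5.30-fold and 3.39-fold) and in RC4 (69.0-fold and 12.5-fold). Srxn1 was 11.9-fold higher in RC4 but at −0.037 on the log2 scale in AS. Gclm stayed within 1.5-fold in each comparison, and Hspa1a and Atf3 were not listed. Of the 9 fibroblast markers, 0 in AS, 3 in RC4, then 5 in RC8 were at least 1.5-fold lower, all collagen or PDGF receptor genes, and 0 were higher. Whether this difference bears on the members was not tested.

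Most members stayed within 1.5-fold of the median gene. In AS, 0 of 62 members were at least 1.5-fold higher, against 2.07% of all genes, and 4 (6.45%) were at least 1.5-fold lower, against 10.2%. In RC4, 8 members (12.9%) were higher, against 15.0%, and 4 (6.45%) were lower, against 17.4%. In RC8, 7 members (11.3%) were higher, against 11.1%, and 6 (9.68%) were lower, against 12.1%. Each count of members was thus near or below the share of all genes, and is no result about the members as a set. A total of 22 members passed the limit in at least 1 comparison, 7 in more than 1, and 41 in none. The matching counts over all genes are not given here, so these totals are no result about the members as a set either. The values nearest the limit were −0.65 (Eif4ebp3) inside and −0.56 (Eif2ak2) outside in AS, 0.61 (Eif5) and 0.56 (Eef1g) in RC4, and 0.61 (Eif3g) and 0.52 (Eif1) in RC8.

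The median member was 0.14 above the median gene in AS, with 47 of 62 members above 0, and 0.038 above it in RC8, with 34 of 62. In RC4 the median was 0.21 with 46 of 62 members above 0, but in RPM it was −0.090 with 24 of 62 above 0. For all genes in RC4, the median in RPM was −0.30, with 2941 of 10081 above 0. Among genes with a mean of at least 1000 reads, a limit chosen after the values were seen, the median was 0.15 for 45 members and 0.041 for 4094 genes in AS, 0.29 for 44 members and 0.15 for 3989 genes in RC4, and 0.026 for 48 members and −0.024 for 4286 genes in RC8. In RC4, genes with many reads thus also lay above the median gene.

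**Figure D1:**
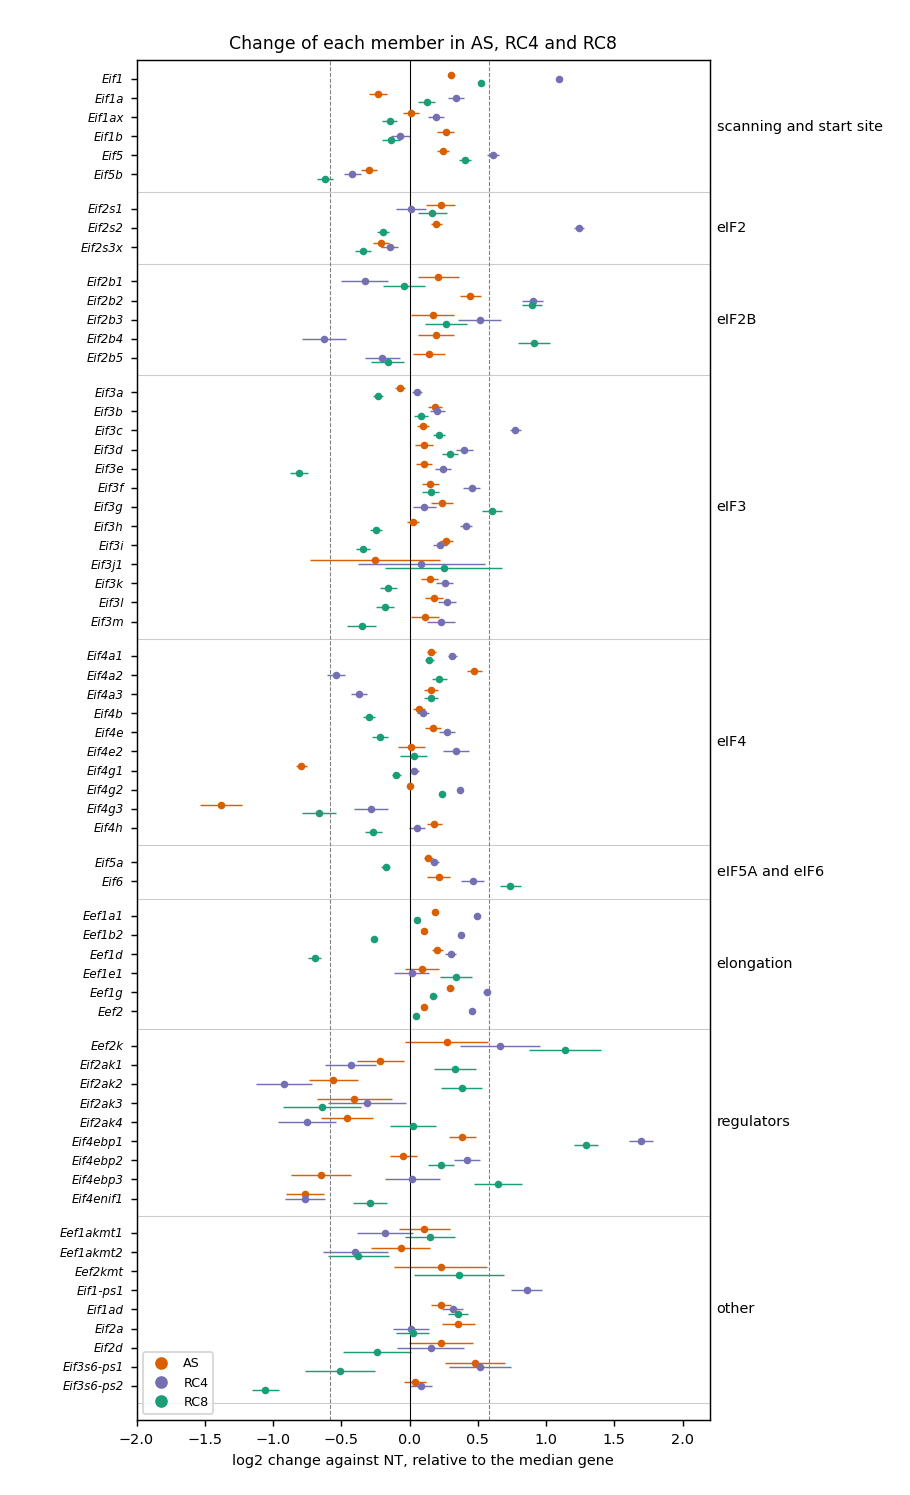
Log2 change of each member against NT relative to the median gene (horizontal axis), grouped by role, with AS in orange, RC4 in purple and RC8 in green and bars for 95% counting intervals; dashed lines mark 1.5-fold. Eif4ebp1 stands farthest to the right, at 1.70 in RC4, and Eif4g3 farthest to the left, at −1.38 in AS.

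**Figure D2:**
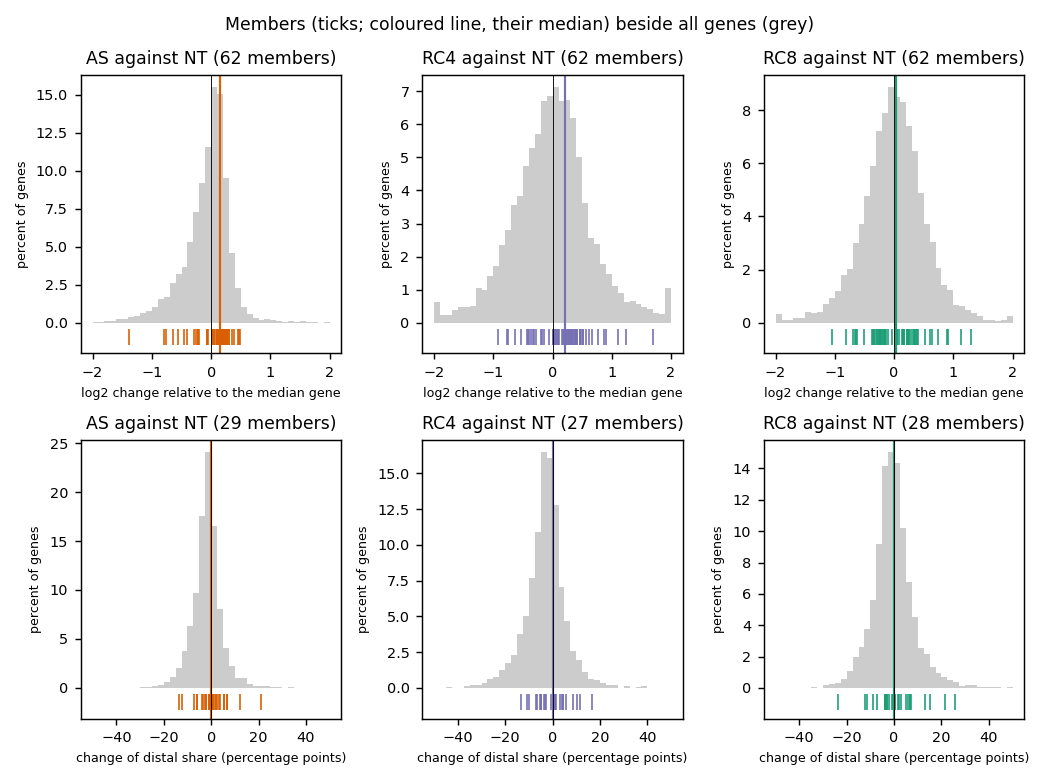
Distribution over all genes (grey bars, percent of genes) of the log2 change (upper row) and of the change in share of the distal PAS within the 3′-most exon (lower row, percentage points), with the members as ticks and their median as a coloured line; values beyond the axis are drawn at its end. Most members lie inside the bulk of all genes. Some lie in the tails, such as Eif4g3 in AS and Eif4ebp1 in RC4 and RC8 for log2 change. For the distal share, Eif4enif1 and Eif4e2 do so in RC8. The members' medians of log2 change for AS, RC4 and RC8 are 0.14, 0.21 and 0.038.

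Of the 3 listed subunits of eIF2, 1 stood out, and only in RC4. Eif2s2, which encodes the beta subunit, had 405 RPM in NT, against 451 (AS), 779 (RC4) and 355 (RC8). It was high in RC4 alone, 2.37-fold higher (1.24 ± 0.019), and above 95.9% of all genes there. Eif2s1, which encodes the alpha subunit that the stress kinases phosphorylate, had 60.9, 69.2, 49.8 and 68.6 RPM in NT, AS, RC4 and RC8 and lay 0.011 ± 0.058 from the median gene in RC4. Eif2s3x, for the gamma subunit that binds GTP, was at −0.21, −0.14 and −0.34 in the 3 comparisons. The subunits of this one complex thus had unequal changes in RC4.

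The 5 subunits of eIF2B, the exchange factor, also differed among themselves. Eif2b2, for the beta subunit, had 102 RPM in NT, against 135 (AS), 155 (RC4) and 191 (RC8) and was 1.87-fold higher in RC4 and 1.87-fold higher in RC8. Eif2b4, for the delta subunit, had 39.3 RPM in NT, against 43.8 (AS), 20.7 (RC4) and 74.2 (RC8). It was the lowest of the 5 in RC4 (−0.63 ± 0.082) and in RC8 it was high (0.91 ± 0.060), level with Eif2b2 (0.90 ± 0.037) within the counting error. Eif2b5, which carries the catalytic activity, stayed at 0.14 ± 0.059, −0.20 ± 0.066 and −0.16 ± 0.062. Eif2b1 was at −0.33 ± 0.088 in RC4 (past the limit in RPM, at −0.63), and Eif2b3 at 0.51 ± 0.080.

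The 4 eIF2 kinases were all below the median gene in AS and in RC4. Eif2ak2 (PKR, which senses double-stranded RNA) had 27.6 RPM in NT, against 18.2 (AS), 11.8 (RC4) and 36.1 (RC8), was 1.89-fold lower in RC4 and lay above NT in RC8. Eif2ak4 (GCN2, which senses uncharged tRNA) had 24.1, 16.5, 11.7 and 24.7 RPM in the same order and was 1.68-fold lower in RC4, with RC8 next to NT. Eif2ak1 (HRI), the kinase known for its activation by arsenite, had 27.1, 22.7, 16.3 and 34.2 RPM and stayed within the limit, at −0.21 ± 0.087, −0.43 ± 0.095 and 0.33 ± 0.078. These 3 kinases were thus lowest in RC4 and at or above NT in RC8. Eif2ak3 (PERK, the kinase of the endoplasmic reticulum) differed from them, with 11.0, 8.15, 7.16 and 7.04 RPM and −0.64 ± 0.15 in RC8, although it had only 247 reads in NT and 162 in RC8. In RPM, Eif2ak1 (−0.73) and Eif2ak3 (−0.61) would also pass the lower limit in RC4, as would Eif2ak2 in AS (−0.60).

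Among the 6 factors of scanning and subunit joining, Eif1 changed most. Eif1, a keeper of start codon accuracy, had 1207 RPM in NT, against 1448 (AS), 2098 (RC4) and 1740 (RC8). It was highest in RC4, 2.14-fold higher (1.1 ± 0.011), and remained above NT in RC8 (0.52 ± 0.011). Eif5, the GTPase activator of eIF2, had 351, 404, 436 and 468 RPM in the order NT, AS, RC4, RC8 and was 1.53-fold higher in RC4, a value that falls within the limit in RPM (0.31). Eif5b, the GTPase of subunit joining, went the other way, with 245, 194, 149 and 160.0 RPM and −0.62 ± 0.031 in RC8. In RC4 it was at −0.42 ± 0.031, which in RPM is past the lower limit (−0.72). Eif1a, Eif1ax and Eif1b stayed between −0.23 (Eif1a in AS) and 0.34 (Eif1a in RC4). Eif1-ps1, a pseudogene with 1020 reads in NT and 1524 in RC4, was 1.81-fold higher, a value that falls within the limit in RPM (0.56), and it shares sequence with Eif1, so its reads cannot be assigned with certainty.

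The eIF4 group held the lowest members of the AS comparison. Eif4g1, the scaffold that joins the cap-binding protein to the helicase and to eIF3, had 694 RPM in NT, against 389 (AS), 577 (RC4) and 651 (RC8). It was low in AS alone, 1.73-fold lower (−0.79 ± 0.019), and below all but 5.73% of genes. Its paralog Eif4g3 had 55.6, 20.7, 37.1 and 35.2 RPM in the same order and was 2.60-fold lower in AS, a change that only 0.765% of genes fell below, and 1.58-fold lower in RC8. Eif4g2 (DAP5), a relative that does not bind the cap-binding protein, had 1452, 1418, 1523 and 1718 RPM and stayed at 0.0069 ± 0.011 in AS. The 3 scaffold genes therefore had unequal changes in AS.

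No other eIF4 gene passed the limit relative to the median gene. Eif4e, which binds the cap, was at 0.17 ± 0.030, 0.28 ± 0.031 and −0.22 ± 0.032 in AS, RC4 and RC8. The helicase gene Eif4a1 was at 0.16 ± 0.016, 0.31 ± 0.016 and 0.15 ± 0.016. Its paralog Eif4a2 had 225 RPM in NT, against 305 (AS), 126 (RC4) and 263 (RC8), the highest change of the group in AS (0.48 ± 0.027) and the lowest in RC4 (−0.54 ± 0.034, or −0.84 in RPM, which is past the limit). Eif4a3, the helicase of the exon junction complex, was at −0.37 ± 0.031 in RC4, which is also past the limit in RPM (−0.67), and Eif4b and Eif4h, which help the helicase, were at −0.30 ± 0.023 and −0.26 ± 0.031 in RC8.

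The eIF4E-binding proteins hold eIF4E away from the scaffold. Eif4ebp1 had 63.4 RPM in NT, against 80.7 (AS), 167 (RC4) and 156 (RC8). It was 3.24-fold higher in RC4 (1.70 ± 0.045) and 2.45-fold higher in RC8 (1.29 ± 0.045), the highest change of any member in each, while in AS it lay at 0.39 ± 0.051. Eif4ebp2 stayed at −0.046 ± 0.051, 0.42 ± 0.049 and 0.23 ± 0.048. Eif4ebp3 was low in AS (−0.65 ± 0.11), near the median gene in RC4 (0.020 ± 0.10) and high in RC8 (0.65 ± 0.089), from 19.0, 11.8, 15.7 and 30 RPM in NT, AS, RC4 and RC8. Eif4enif1 (4E-T), which carries eIF4E to the nucleus and to P-bodies, had 50.1, 28.6, 23.9 and 41.0 RPM. It was 1.70-fold lower in AS and 1.70-fold lower in RC4, and all 3 treated libraries lay below NT.

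The 13 listed genes of eIF3, the largest initiation factor, moved little. In AS 11 of them lay above the median gene (median 0.11), and in RC4 all 13 did (median 0.25). In RPM, 4 of the 13 were above NT in RC4, with a median of −0.055. For all genes these values were 2941 of 10081 and −0.30. In RC8, 6 of 13 were above the median gene and the median was −0.16. Eif3c was the 1 member past the limit in RC4, 1.71-fold higher, with 364 RPM in NT, against 379 (AS), 505 (RC4) and 425 (RC8). That call is lost in RPM (0.47), and 1 PAS of Eif3c is also listed for Gm24596.

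In RC8, 2 eIF3 genes passed the limit in opposite directions. Eif3g had 111 RPM in NT, against 127 (AS), 96.9 (RC4) and 169 (RC8) and was 1.52-fold higher there. Eif3e had 207 RPM in NT, against 216 (AS), 199 (RC4) and 118 (RC8) and was 1.75-fold lower. Thus its RC8 library alone lay far from NT. The pseudogenes Eif3s6-ps2 and Eif3s6-ps1, copies of Eif3e under its older name, were at −1.06 ± 0.050 and −0.51 ± 0.13 in RC8, and reads of the 3 genes cannot be told apart with certainty where their sequences match. Eif3a, the largest subunit, was at −0.066 ± 0.019, 0.056 ± 0.019 and −0.23 ± 0.019, and Eif3j1 had too few reads for a narrow value, with 79 reads in NT and 64 in AS.

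Eif5a, whose product carries hypusine and helps the ribosome past proline stretches, stayed at 0.14 ± 0.016, 0.18 ± 0.017 and −0.18 ± 0.017. Eif6, which keeps the large subunit from joining too early, had 94.6 RPM in NT, against 107 (AS), 106 (RC4) and 158 (RC8) and was 1.67-fold higher in RC8. Its AS and RC4 levels were close to each other.

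**Figure D3:**
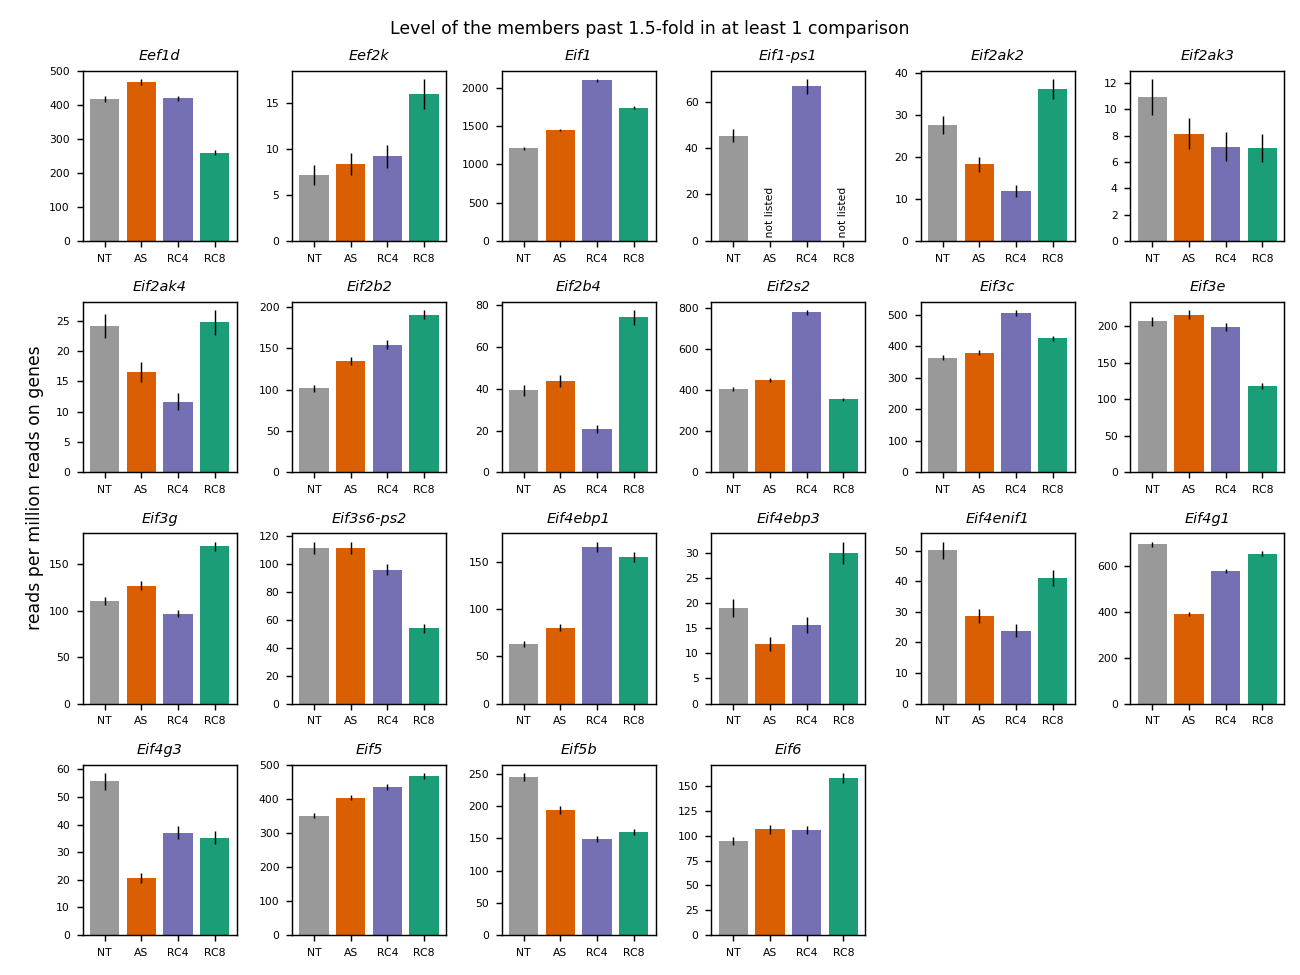
RPM, reads scaled to the library's total on genes (vertical axes, each from 0) in the NT, AS, RC4 and RC8 libraries for the 22 members past 1.5-fold in at least 1 comparison, with bars for 95% counting intervals. Eif4g1 and Eif4g3 are lowest in AS, Eif1, Eif2s2 and Eif4ebp1 highest in RC4, and Eif2b4 lowest in RC4 and highest in RC8.

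The 6 genes grouped under elongation, Eef1e1 among them by its name, were all above the median gene in AS (median 0.15) and in RC4. In RC4 the median was 0.42, or 0.11 in RPM with 4 of 6 above NT. None of the 6 passed the upper limit. Of all genes, 2941 of 10081 were above NT in RPM in RC4. Eef1a1, which delivers aminoacyl-tRNA, had 4710 RPM in NT, against 5219 (AS), 5393 (RC4) and 4909 (RC8) and was at 0.50 ± 0.0060 in RC4. Eef2, the translocase, had 2871, 2998, 3200 and 2977 RPM in that order and was at 0.46 ± 0.0078. In both, RC8 lay close to NT relative to the median gene, at 0.054 ± 0.0062 and 0.047 ± 0.0079.

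The exchange factor subunits of eEF1 differed in RC8. Eef1d had 418 RPM in NT, against 468 (AS), 419 (RC4) and 259 (RC8) and was 1.62-fold lower in RC8 alone. Eef1b2 was at −0.26 ± 0.0092 and Eef1g at 0.17 ± 0.013 there. Eef1e1, a component of the multi-tRNA synthetase complex, was at 0.34 ± 0.060. Eef2k, the kinase that inactivates eEF2, had 7.19 RPM in NT, against 8.42 (AS), 9.22 (RC4) and 16.0 (RC8) and was 2.2-fold higher in RC8 (1.14 ± 0.14), from 164 reads in NT and 369 in RC8. Its RC4 value of 0.66 ± 0.15 falls within the limit in RPM (0.36).

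TOP mRNAs, from textbook knowledge, numbered 9 among the members, namely Eef1a1, Eef1b2, Eef1d, Eef1g, Eef2, Eif3e, Eif3f, Eif3h and Eif4b. All 9 were above the median gene in AS (median 0.11) and RC4 (median 0.41), where in RPM 8 of 9 and 6 of 9 were above NT. Of all genes, 4569 of 10452 in AS and 2941 of 10081 in RC4 were above NT in RPM. In RC8 the median of the 9 was −0.25, 4 of 9 were above the median gene and 2, Eif3e and Eef1d, were past the lower limit. The remaining members by symbol include Eif2a and Eif2d, which can bring initiator tRNA to the ribosome without eIF2, and the methyltransferases Eef1akmt1, Eef1akmt2 and Eef2kmt. They lay between −0.40 (Eef1akmt2 in RC4) and 0.36 (Eef2kmt in RC8).

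Of 41 other genes of the pathway, 40 were listed, 39 in each comparison. The limit was passed by 2 upward and 3 downward in AS, by 6 and 4 in RC4 and by 4 and 3 in RC8. These counts came to 5.13% and 7.69%, 15.4% and 10.3%, and 10.3% and 7.69% of the 39 genes, beside 2.07% and 10.2%, 15.0% and 17.4%, and 11.1% and 12.1% of all genes, so most were near or below the background. The largest change was that of Ppp1r15a (GADD34), which guides a phosphatase to eIF2, with 268 reads in NT and 1251 in AS. It was 4.83-fold higher in AS and 4.75-fold higher in RC4, but 1.65-fold higher in RC8, whereas its constitutive relative Ppp1r15b was 1.57-fold lower in AS. Mtor, the kinase above the eIF4E-binding proteins, was past the lower limit in all 3, at −0.63 ± 0.095, −1.16 ± 0.11 and −0.77 ± 0.097, and Rps6kb1, one of its substrates, was 1.69-fold lower in RC4 and 1.80-fold lower in RC8.

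In RC4 the release factor gene Etf1 was 2.05-fold higher, and Denr, which works in recycling and reinitiation, was 2.5-fold higher. Dhps, which takes part in the formation of hypusine on eIF5A, was 2.26-fold higher in RC4 and 1.99-fold higher in RC8. The eIF4E kinase gene Mknk2 was 1.65-fold higher in RC4, and Impact, a regulator of GCN2, was 1.5-fold higher, but both fall within the limit in RPM (0.42 and 0.29). The other eIF4E kinase gene, Mknk1, was 1.63-fold lower in RC4, from 257 reads in NT and 130 in RC4, and is named after its values were seen. Further genes of the list would pass the lower limit in RPM in RC4, such as Gfm2 at −0.85, where 31.8% of all genes do. Larp1, a TOP mRNA-binding protein, was 2.37-fold lower in AS, and the poly(A)-binding protein gene Pabpc4 was 2-fold lower in RC8. Of the mitochondrial factors, Tsfm was 2.37-fold lower in RC4, Mtrf1l 1.53-fold higher in AS (within the limit in RPM, at 0.57) and Mtif3 1.57-fold higher in RC8. Gspt2, a release factor partner, was 1.81-fold higher in RC8.

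The same libraries give, for genes with more than 1 PAS, each PAS's share of the gene, by MAAPER's assignment of the reads. A PAS is the site where the transcript is cleaved and polyadenylated, and a choice among several sites sets the 3′UTR or, upstream of the 3′-most exon, the coding end. Of the members, 40 had more than 1 PAS in at least 1 table and 23 had 1 PAS in every table. A PAS moved by at least 10 percentage points in 4 of 39 members in AS (10.3%), against 15.3% of all such genes, in 7 of 37 in RC4 (18.9%), against 29.1%, and in 11 of 36 in RC8 (30.6%), against 27.0%. In all 18 members did so, 4 of them in more than 1 comparison. The matching counts over all genes are not given here, so these totals are no result about the members as a set. The 95% Wilson intervals of these shares, which cover counting only and not the assignment of reads to PASs, extended at most 6.33 points to either side in members with at least 200 reads in both libraries.

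Within the 3′-most exon, the share of the most distal PAS was at least 10 points lower in 2 of 29 members in AS (background 8.52%), 3 of 27 in RC4 (background 16.4%) and 3 of 28 in RC8 (background 10.9%). It was at least 10 points higher in 2 members in AS (background 3.21%), 3 in RC4 (background 5.42%) and 4 in RC8 (background 9.35%). The distal share was below NT in 48.3%, 48.1% and 50% of members in AS, RC4 and RC8, beside 66.0%, 67.5% and 54.9% of all genes with such PASs. Members were split by the distance between their first and last PAS in that exon at 300 nt, a limit chosen after the values were seen. In RC8 the 12 members with closer PASs, 103 nt to 220 nt apart, had a median change of 3.96 points. Of these 12, 4 (33.3%) gained at least 10 points, beside 19.2% of all genes with PASs under 300 nt apart. The 16 members with PASs 489 nt or more apart had a median of −1.86 points. Of these 16, 3 (18.8%) lost at least 10 points, beside 11.7% of all genes with PASs 300 nt or more apart. The corresponding medians of all genes were 1.18 and −1.5 points in RC8, and in RC4 they were 0.20 and −3.90 points beside 4.30 and −5.00 points in members. Reads start upstream of a PAS over a range of distances, so shares of close PASs rest on MAAPER's distance model, and its part in these values was not tested.

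The distal PAS gained at least 10 points in RC8 in Eef1akmt2, which had few reads, and in Eif4enif1, Eif4a2 and Eef1a1. In these last 3 the 2 PASs of the 3′-most exon lay 148 nt, 189 nt and 151 nt apart. Their sequences are shown because they are the ends whose use changed. Each line gives the 30 nt that end at the PAS, read from the NCBIM37 assembly (mm9) in the sense of the gene. Capitals mark AATAAA or ATTAAA, the hexamers of the polyadenylation signal.
Eif4enif1 proximal PAS, chr11:3144409-3144438, + strand: gacctgtgtataaacttttgtacatacaaa
Eif4enif1 distal PAS, chr11:3144557-3144586, + strand: ATTAAAagttacatatgccacgtgtgtgaa
Eif4a2 proximal PAS, chr16:23113802-23113831, + strand: tttaaagtgatttcttttttttagagaaaa
Eif4a2 distal PAS, chr16:23113991-23114020, + strand: aatgttaAATAAAattgtatattcacttta
Eef1a1 proximal PAS, chr9:78326345-78326374, - strand: tgtgtgtggcagttttaagttattagtttt
Eef1a1 distal PAS, chr9:78326194-78326223, - strand: tacaacaaaggtactggggtccccatggta

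The distal end of Eif4enif1 held a share of 49.1% to 49.3% in NT against 55.2% (AS), 63.3% (RC4) and 74.6% (RC8), with each library above the one before it. With 95% Wilson intervals, the share was 49.3% (interval 46.4% to 52.2%) in NT and 74.6% (71.7% to 77.3%) in RC8. Per PAS, the proximal end was at −1.42 on the log2 scale relative to the median gene in RC8 and the distal end at 0.31. The lower total of this gene in AS and RC4 was present at both ends, at −1.42 and −0.40 in RC4.

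Eif4a2 behaved alike, with 55.4% to 58.4% in NT against 57.9% (AS), 65.3% (RC4) and 79.8% (RC8) at the distal end. An intron PAS of Eif4a2 at 23111889 of chromosome 16 held 4.26% in NT against 8.34% (AS) and 6.56% (RC4) and was not listed beside RC8, so the NT share differs between tables. The distal end of Eef1a1 held 65.0% to 65.2% in NT against 71.7% (AS), 74.0% (RC4) and 80.3% (RC8). With 106334 reads in NT and 112885 in RC8 its intervals are narrow, 65.2% (interval 64.9% to 65.5%) in NT and 80.3% (80.1% to 80.5%) in RC8. That PAS lies 62 nt past the annotated end of the gene and is also listed for Gm26377. The distal sites of Eif4enif1 and Eif4a2 carry a hexamer in the 30 nt and their proximal sites do not, while neither site of Eef1a1 does.

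Eif4ebp2, Eif1ax, Eif4b, Eif1ad and Eif4e2 moved toward proximal ends in at least 1 recovery library. In Eif4ebp2 the distal end, 3295 nt past the main one, held 24.7% in NT against 24.0% (AS), 12.5% (RC4) and 14.5% (RC8). In Eif4e, whose 5 PASs lie in 1 exon, the share moved from the PAS before the last to the first one, and the last PAS held 7.32% in NT against 6.35% (AS), 8.42% (RC4) and 7.02% (RC8). These pairs are shown as examples in which both ends carry a hexamer in the 30 nt. In the first PAS of Eif4e the hexamer is the last 6 nt. At the other sites, in the order main and distal PAS of Eif4ebp2 and PAS before the last of Eif4e, it starts 29 nt, 21 nt and 22 nt upstream. Whether the hexamer of the first Eif4e PAS serves as a signal there was not tested.
Eif4ebp2 main PAS, chr10:60894534-60894563, - strand: aATTAAActccaaatttcatttcctatgga
Eif4ebp2 distal PAS, chr10:60891239-60891268, - strand: ttacagttaAATAAAgaccttgaatactga
Eif4e first PAS, chr3:138219067-138219096, + strand: tccaggaatatgacagaaaggtggAATAAA
Eif4e PAS before the last, chr3:138219844-138219873, + strand: taaaacacAATAAAcaagtattaagaacta

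The PAS before the last of Eif4e held 32.9% in NT against 30.7% (AS), 25.8% (RC4) and 19.8% (RC8), and the first 34.5% in NT against 36.0% (AS), 40.1% (RC4) and 47.0% (RC8). The total of the gene stayed within the limit, so the per-PAS values differed more than the gene did, at −0.95 and 0.23 in RC8. In Eif1ax the distal end at 155825935 of chromosome X held 26.6% (interval 25.4% to 27.8%) in NT and 14.4% (13.4% to 15.4%) in RC8. The last PAS of Eif4b held 26.1% to 26.5% in NT against 23.7% (AS), 16.0% (RC4) and 22.7% (RC8). The distal PAS of Eif1ad held 54.2% in NT against 50.6% (AS), 43.6% (RC4) and 61.0% (RC8), so RC4 and RC8 lay on opposite sides of NT. In Eif4e2 the distal share within the 3′-most exon was 56.3% in NT and 32.7% in RC8, although most reads of that gene were assigned to an intron PAS that the annotation places in a UTR, 56.8% to 57.6% in NT against 60.9% (AS), 69.7% (RC4) and 61.4% (RC8). In Eif1 the third of 4 PASs was low in RC8 only, with 20.2% (interval 19.7% to 20.7%) in NT and 10.0% (9.71% to 10.3%) in RC8, while the gene's total was higher than in NT in all 3 treated libraries. Eef1akmt2, a gene with 365 reads in NT and 337 in AS, gained at its distal PAS in all 3, with 12.7% in NT against 31.9% (AS), 21.2% (RC4) and 22.4% (RC8).

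Upstream of the 3′-most exon, a gain of at least 10 points was seen in 1 of 19 members in AS (background 7.64%), 1 of 19 in RC4 (background 19.2%) and 0 of 17 in RC8 (background 7.18%). A loss of that size was seen in 0 members in AS (background 4.36%), 0 in RC4 (background 4.25%) and 2 of 17 in RC8 (background 9.81%). The summed upstream share was below NT in 3 of 19 members in AS, 5 of 19 in RC4 and 11 of 17 in RC8, with medians of 1.35, 2.30 and −2.87 points beside 1.00, 2.40 and −1.20 points for all genes. The share of all genes below NT is not given here, so these counts are no result about the members as a set. The sites of 4 members are shown, each with its main site in the 3′-most exon, because these are the upstream ends that moved most or, in Eif2s2, lie in a gene whose level also changed.
Eif2b3 intron PAS, chr4:116732302-116732331, + strand: tcatataaatgaatgaatgaatgaatgaat
Eif2b3 3′-most exon PAS, chr4:116759424-116759453, + strand: ttatttttcAATAAAgaagaatttccaggc
Eif2ak3 intron PAS, chr6:70805561-70805590, + strand: gttgcagacattgcatggaaaaaaaaaaaa
Eif2ak3 3′-most exon PAS, chr6:70855203-70855232, + strand: taaatgatttAATAAAaaaattttaaatta
Eif5b internal exon PAS, chr1:38079051-38079080, + strand: gaaaaagaaagaaaagaacggttaaaaaaa
Eif5b 3′-most exon PAS, chr1:38108887-38108916, + strand: tgattcttgggactttttcgatgtaagaaa
Eif2s2 internal exon PAS, chr2:154713477-154713506, - strand: tcaaaagaaaaagaagaaaaagacaaaaaa
Eif2s2 3′-most exon PAS, chr2:154698171-154698200, - strand: caagataaATTAAAgttattataacagtaa

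The intron PAS of Eif2b3 held 14.4% in NT against 15.1% (AS), 44.2% (RC4) and 21.2% (RC8). From NT to RC4 the values were 14.4% (interval 11.8% to 17.4%) in NT and 44.2% (40.6% to 47.9%) in RC4, and per PAS the intron end was at 2.13 and the 3′-most exon end at −0.10. Thus the higher total of Eif2b3 in RC4 came with reads at the intron end. Neither hexamer stands in its 30 nt. Of the next 20 genomic bases 12 are A, where the median intron PAS of all genes has 5. The intron PAS of Eif2ak3 held 20.3% in NT against 41.4% (AS), 24.0% (RC4) and 14.9% (RC8), from 251 reads in NT and 183 in AS, and 17 of its next 20 bases are A. Whether these A-rich stretches bear on the shares was not tested.

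The main internal exon PASs of Eif5b, Eif2s2, Eif3a and Eif3e lie in coding sequence, and their shares were lower in RC8 than in NT. Other members whose only upstream PAS was such a site went both ways. From NT to RC8, Eif4enif1 went from 7.05% to 5.33% and Eif6 from 33.7% to 32.5%. Eif3c went from 16.7% to 18.3% and Eif2b5 from 4.37% to 6.25%. Of the next 20 bases, 9 were A at the third internal site of Eif5b and 7 at that of Eif2s2. The median was 6 for internal exon PASs of all genes, and any link to the shares was not tested. In Eif5b the third internal site held 48.1% in NT against 44.6% (AS), 49.6% (RC4) and 35.2% (RC8), and its RC8 value was −1.07 on the log2 scale, beside 0.010 at the last PAS. In RC8 the third internal site was thus lower while the last PAS lay near the median gene. In RC4 the internal site and the last PAS were alike, at −0.38 and −0.43. All upstream PASs of Eif5b together held 72.2% in NT and 58.4% in RC8, and its other PASs are not set out singly here. In Eif2s2 the internal site held 27.2% in NT against 29.9% (AS), 31.2% (RC4) and 18.9% (RC8). The higher RC4 level of that gene was present at its internal site (1.44) and its main site (1.23). Within the 3′-most exon, its distal PAS lost share, from 7.38% in NT to 2.55% in RC4. In Eif3a 2 internal sites together held 32.6% in NT and 20% in RC8, and in Eif3e the internal site had 15.3% to 15.5% in NT against 16.1% (AS), 11.9% (RC4) and 7.52% (RC8). The low AS level of Eif4g1 was shared by its internal exon, intron and 3′-most exon PASs, at −0.55, −0.77 and −0.82. Likewise both PASs of Eif4g3 were low in AS, at −1.44 and −0.95.

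**Figure D4:**
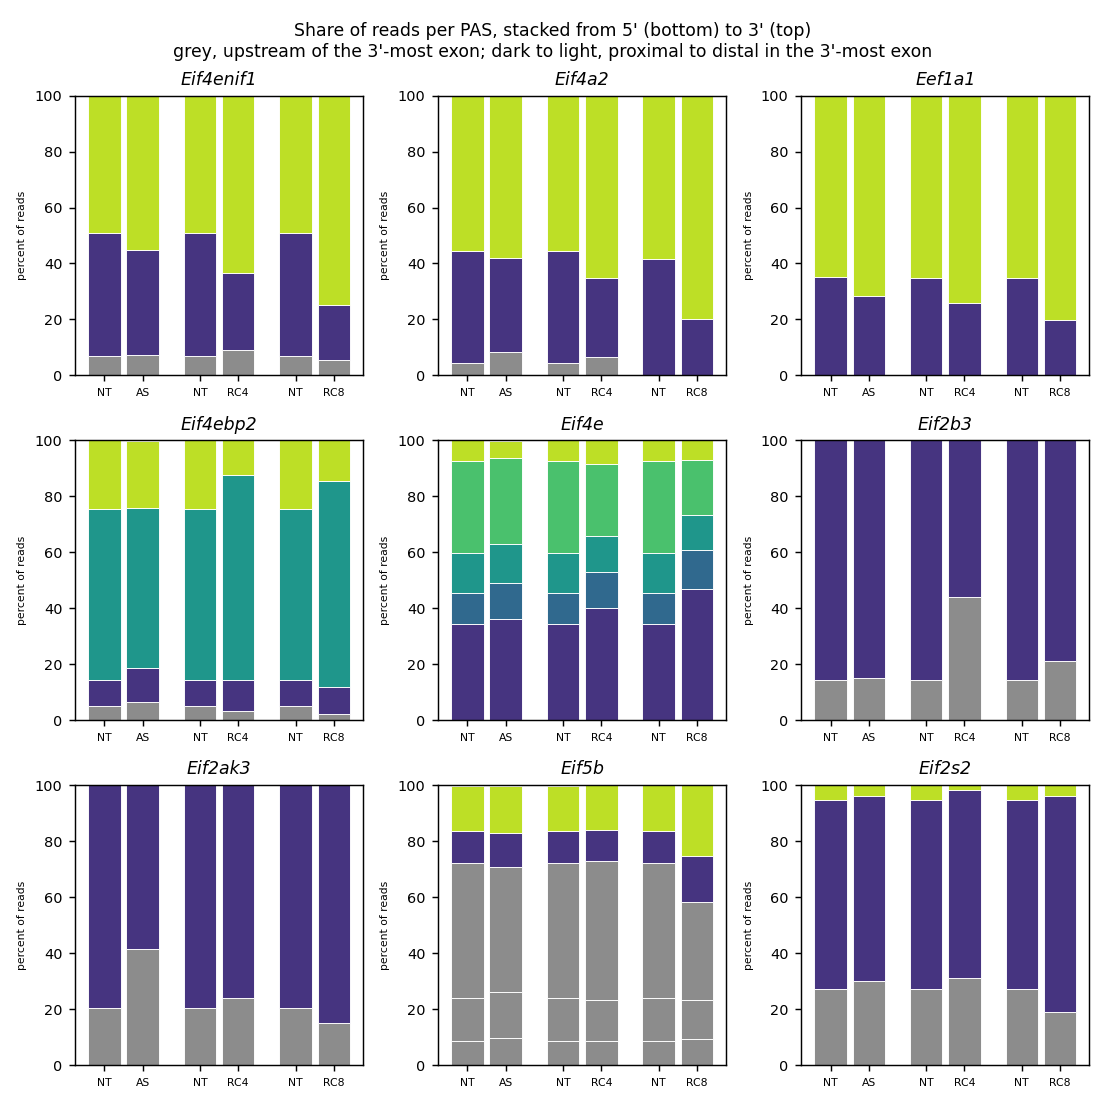
Percent of a gene's reads at each PAS (vertical axis) for 9 members, as pairs of NT and treated libraries from the table of each comparison, stacked from the most 5′ PAS at the bottom to the most 3′ at the top; grey marks PASs upstream of the 3′-most exon, and dark to light the proximal to distal PASs within it. The top segment grows from NT to RC8 in Eif4enif1, Eif4a2 and Eef1a1, and the grey segment of Eif2b3 is largest in RC4, at 44.2%.

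AATAAA or ATTAAA was searched in the 40 nt up to each PAS on the strand of the gene only, and a site with both was counted as AATAAA. Of 107 PASs in the 3′-most exons of members, 41.1% held either, beside 53.0% of the 18102 PASs of all genes there. Of 18 internal exon PASs of members, 11.1% held either, beside 11.2% of 412 in all genes, and of 12 intron PASs 50%, beside 53.0% of 2113. At least 10 of the 20 bases past the PAS were A in 16.7% of the members' internal exon PASs and 6.54% of their 3′-most exon PASs, beside 21.1% and 5.05% in all genes. The letters describe the sites, and their link to the changes was not tested.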

How the data were processed

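QuantSeq FWD libraries of NT, AS, RC4 and RC8 cells (1 each) were analysed, and REV libraries were not analysed here. The authors trimmed the reads, mapped them to mm9 with STAR 2.5.2a (version from the submitters' processing notes) and applied MAAPER, with PolyA_DB as its list of PASs, to each treated library paired with NT. The deposited values are raw read counts per gene, in 2 columns per library, and the fraction of a gene's reads at each PAS, for genes with at least 50 reads and PASs selected at 5%. The deposited tables also hold the authors' own comparisons (likelihood-ratio and Fisher P values, RLDu, RLDi, RED and the PAS pair), which were not used.

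Both count columns were summed, since they varied like repeat draws of 1 library (chi-square per degree of freedom 0.974 to 1.03). Depth was 22.4 M to 23 M reads per library. Reads from 3′ ends are not divided by length, so levels were compared within a gene. Each log2 change was set against the median of its own table. With 1 library per condition no test was possible, and a change was called past 1.5-fold, or past 10 percentage points for a PAS. Counting errors and 95% Wilson intervals do not cover culture, PCR or read assignment. Genes that share sequence with pseudogenes are uncertain. The calculations were checked on simulated data.

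The text names the highest and lowest gene of each role in NT, every member past a limit with at least 200 reads in both libraries, and 20 genes of known role. Other members, such as Eif2b1, Eif1-ps1 and Eef2kmt, were named to complete a role group. The members, lists and limits were chosen with earlier results of these data known. Alternatives were RPM (reads scaled to the library total on genes), TMM, read minimums, common genes, NT reads over tables, single count columns, factors only and other limits. Python 3.11.15, pandas 2.3.3, numpy 2.4.6, scipy 1.17.1, matplotlib 3.10.9, R 4.3.3 and edgeR 4.0.16 (TMM factors only) were used.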

Additional observations from a re-analysis of the deposited data

Results flagged for a closer look

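In 2 genes the change went past 1.5-fold in opposite directions in different comparisons, and the differences were not tested, since each condition has 1 library. How many of all genes did so is not given here, so this count is no result about the members as a set. Eif2b4 was at −0.63 in RC4 and 0.91 in RC8 on the log2 scale relative to the median gene. Eif4ebp3 was at −0.65 in AS and 0.65 in RC8. On a single count column, 3 of these 4 values fell within the limit, Eif2b4 in RC4 at −0.55 and Eif4ebp3 at −0.44 in AS and 0.48 in RC8.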

How the results depend on the processing

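No paired analysis was possible because each condition has 1 library. Of the recomputed counts and medians 93 stayed close to the reported value and 42 moved. In RPM, RC4 had 4 members higher and 11 lower in place of 8 and 4, beside 8.04% and 31.8% of all genes, and a median of −0.090 in place of 0.21, beside −0.30 for all genes. TMM scaling and NT reads taken over tables changed no call among 132 values of named members (29 called), RPM removed 4 calls and added 6, and either count column alone removed 3 and added 2. The calls lost on 1 column were Eif5 and Eif2b4 in RC4, Eif4ebp3 in AS and in RC8, and Eif2ak3 and Eif4g3 in RC8. With factors only (47 genes), 0 members were higher and 2 lower (4.26%) in AS, beside 2.07% and 10.2% of all genes. In RC4, 5 were higher (10.6%) and 1 lower (2.13%), beside 15.0% and 17.4%. In RC8, 4 were higher and 4 lower (8.51% each), beside 11.1% and 12.1%. With a mean of at least 1000 reads, chosen after seeing the data, and changes set against the median of those genes only, 1 member was lower in AS and 1 in RC4, where against the median of all genes 0 were lower in RC4. Among all genes with that many reads, 6.47% in AS and 10.5% in RC4 were lower, against the median of all genes. At 2-fold, 1 member was lower in AS, 3 were higher and 0 lower in RC4, and 2 were higher and 1 lower in RC8. The share of all genes past 2-fold is not given here, so these counts are no result about the members as a set.

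With a limit of 5 points, a PAS moved in 13, 17 and 25 members (AS, RC4 and RC8), the distal end lost share in 5, 8 and 5, gained in 6, 5 and 9, and upstream PASs moved in 3, 3 and 7. With 20 points, a PAS moved in 1, 1 and 2, the distal PAS lost in 0, 0 and 1 and gained in 1, 0 and 2, and upstream PASs moved in 0 in RC8. With at least 200 reads, AS had 2 members with a moved PAS, 1 with a distal gain and 0 with an upstream move. With PASs of at least 10%, the distal PAS lost share in 1 member in AS, and upstream PASs moved in 2 in RC4 and 1 in RC8. The shares of all genes under these settings are not given here, so the counts are no result about the members as a set. Depth limits the genes with fewest reads, where an interval of a share reached 8.03 points to either side.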
